A study of Trametes gibbosa with 15 samples.

Results

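The first sampled response to wood of Trametes (Lenzites) gibbosa, a white-rot fungus, is described here, as the difference between mycelium harvested 3 days after poplar chips were added and mycelium harvested without wood. The 6 libraries concerned, of 15 in the series, were chosen by their labels: 3 of day 3 with wood and 3 of the control. All cultures were strain CB-1 in stationary liquid LNAS medium, a low-nitrogen medium with asparagine and succinate, supplemented with glucose and kept at 25℃. After 10 days the control flasks were harvested, and the others received 2 g of chips of Populus simonii × P. nigra and were harvested at day 3, 5, 7 or 11. Each group of 15 flasks was used as 3 biological replicates, per the labels. Cultures kept for the same time without wood were not analysed here, so wood and 3 further days of culture cannot be told apart. Because these are bulk samples, fewer cells of a kind and less RNA per cell cannot be told apart either.

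White-rot fungi are basidiomycetes that decay all polymers of wood. Lignin is attacked by secreted oxidative enzymes such as laccases and peroxidases, and cellulose and hemicellulose are cut by secreted hydrolases and lytic polysaccharide monooxygenases. In Phanerochaete chrysosporium, a well-studied relative, ligninolytic activity is known to rise when nitrogen runs short. The files used here give gene identifiers without products, so which of the genes below belong to those enzyme families is not described. Each gene is named by its identifier, and the results are ordered by how strongly, how abundantly and how lastingly the genes changed.

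The 6 libraries held 32472274 to 46377457 estimated counts. The submitters' sample codes divide the 15 libraries into 2 series. In the first are the 3 controls together with replicate 1 of day 3, day 5 and day 7. The second has the other 9, including replicates 2 and 3 of day 3. Spearman correlations across genes were 0.965 to 0.967 among the controls, 0.960 to 0.969 among the day 3 libraries and 0.933 to 0.940 between the groups. Every pair within a group differed by more than counting error, with a chi-square of 108 to 261 for each degree of freedom. Levels are given as CPM, the usual library-size-scaled count, adjusted by TMM (a factor that aligns the bulk of genes between libraries). CPM is not divided by gene length. Where genes are ranked or classed by CPM below, the order therefore also reflects length.

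At day 3, expression had risen in 381 genes and fallen in 661, relative to the control. These are 3.35% and 5.81% of the 11386 genes tested, and a gene was called at a Benjamini-Hochberg adjusted p under 0.05 (edgeR quasi-likelihood test with library series as a term) with a change of 2-fold or more. Most changes were moderate: the median fitted log2 fold change was 1.33 among the higher genes and -1.59 among the lower ones. A change of at least 4-fold was seen in 77 higher and 191 lower genes (0.676% and 1.68% of genes tested), one of at least 8-fold in 31 and 78, and one of at least 16-fold in 22 and 43. The 3 day 3 libraries did not overlap the 3 controls in 345 of the 381 higher and 596 of the 661 lower genes, beside 21.7% and 20.2% of all genes tested; the calls used the same values, so nothing is read from this. The largest changes were therefore more often falls than rises under this scaling. The division depends on the scaling: with library totals in place of TMM, 1077 genes were higher and 382 lower, and the median gene then lay 0.38 (log2) above the control. With limma on the deposited FPKM values, log2(FPKM + 1), 805 were higher and 344 lower, and the median lay 0.29 above. Under TMM the median of all genes was 0.01, and every direction below is relative to it.

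The lower genes were more often among the abundant ones. Genes were divided into 5 equal classes by their mean CPM over all 15 libraries, with no correction for gene length. In the most abundant class 10.6% of genes were lower and 3.38% higher at day 3, while in the least abundant class 2.99% were lower and 1.84% higher. Of the 100 genes with the highest mean FPKM, a unit that is divided by transcript length, 25 were lower and 6 higher. The lower genes took 26.9% to 28.1% of counts in the 3 controls and 9.44% to 10.3% at day 3. The higher genes took 1.39% to 1.79% and 5.03% to 5.88%. These shares describe genes chosen on the same libraries and are not tests.

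**Figure D1:**
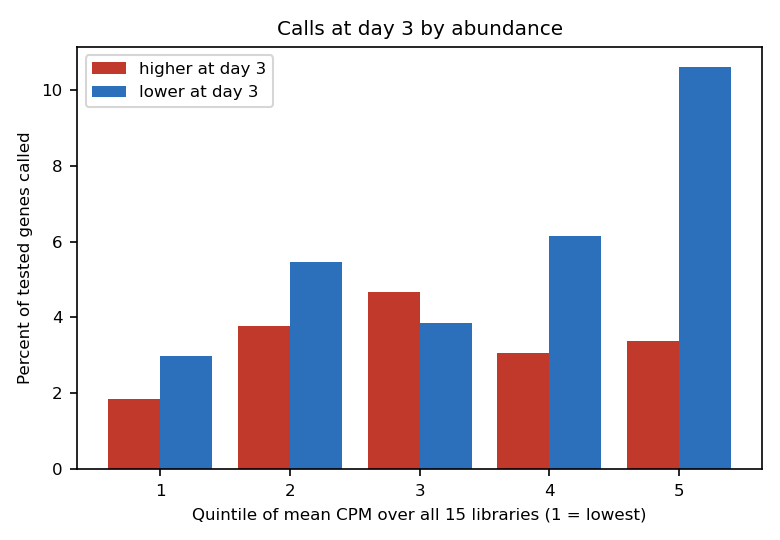
Percent of tested genes called higher (red) or lower (blue) at day 3, by quintile of mean CPM over all 15 libraries, from the least abundant (1) to the most abundant (5). Lower calls rise to 10.6% in the most abundant quintile, while higher calls stay between 1.84% and 4.66%.

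The counts were also spread over more genes at day 3. In each library the top 10 genes by count held 7.64%, 7.61% and 8.02% of counts in the 3 controls and 4.69%, 5.39% and 5.06% in the 3 day 3 libraries. The groups did not overlap, and the mean fell from 7.76% ± 0.233 to 5.05% ± 0.351 (SD, n = 3; exact two-sided permutation test over 20 splits, p = 0.10, the smallest that 3 against 3 can give). Within the first series, the value of day 3 was the 4.69% of replicate 1. For the 100 most abundant genes the means were 26.5% ± 0.343 and 18.7% ± 0.610 (exact p = 0.10, n = 3).

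Replicate 1 of day 3 is the only day 3 library in the series of the controls. Taken alone, it lay outside the range of the controls and at least 2-fold from their mean in 347 of the 381 higher genes (91.1%) and in 619 of the 661 lower genes (93.6%). Over all tested genes, 7.75% lay above and 12.1% below by the same criterion. This library carries much weight in the fit, because it is compared with the controls without a series shift, so the high shares describe the calls and are no independent check. Replicates 2 and 3 lay 2-fold or more above the control mean in 262 and 247 of the higher genes, and 2-fold or more below it in 512 and 529 of the lower ones. All 3 libraries passed 2-fold in 202 higher genes (53.0%) and 465 lower genes (70.3%), beside 3.36% and 6.82% of all genes tested. Only replicate 1 passed 2-fold in 71 higher and 89 lower genes. Replicates 2 and 3 passed without replicate 1 in 10 and 15, and no library passed in 13 and 11. For 23 of the 1042 called genes the mean log2 ratio of replicates 2 and 3 was on the other side of the control, 11 of them called higher and 12 lower.

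**Figure D2:**
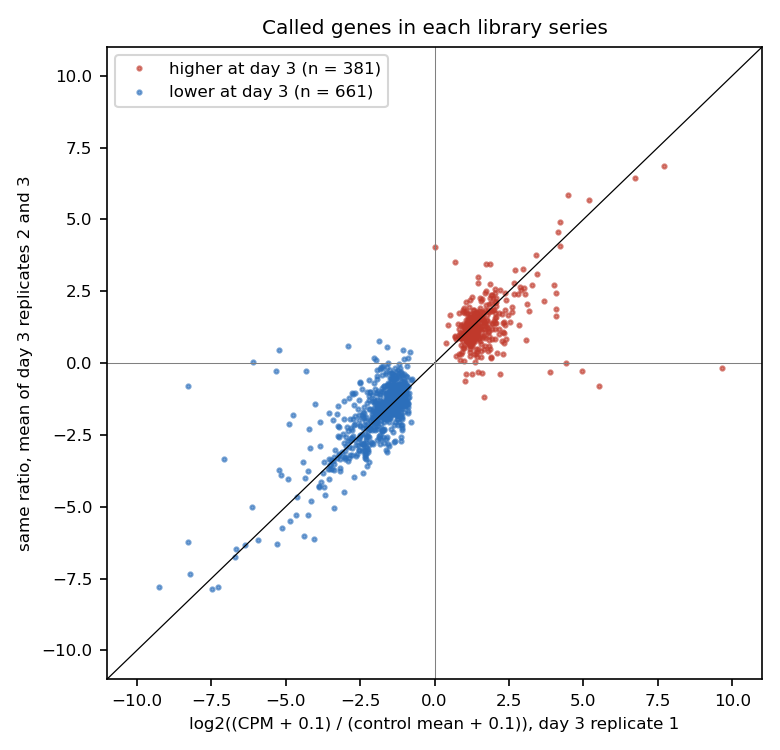
Log2 ratio to the control mean, on the scale of CPM + 0.1, in replicate 1 of day 3 (x axis) and averaged over replicates 2 and 3 (y axis) for the 381 higher (red) and 661 lower (blue) genes; the line marks equal ratios. Most genes lie near the line, and 23 points lie across 0 on the y axis.

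The test within the first series alone compared replicate 1 of day 3 with the 3 controls and assumes that this single library varies like the controls. It called 116 genes higher (1.01% of 11431 tested) and 259 lower (2.27%). Of these, 81 and 205 were also called in the same direction with all libraries (69.8% and 79.2% of the first-series lists, 21.26% and 31.01% of the full lists), and 0 were called in the opposite direction; at an unadjusted p under 0.05 (edgeR) the first series gave 2774 genes. The fitted change had the same sign in 378 of the 379 higher genes and 661 of the 661 lower genes that could be fitted there. These first-series counts rest on the controls: without control replicate 1 both were 0, and without control replicate 2 they were 9 and 10, although 2280 and 2126 genes then had an unadjusted p under 0.05. Without replicate 1 of day 3 the full fit called 269 genes higher, 201 of them among the 381, and 449 lower, 387 of them among the 661. Dropping the series term gave 452 higher and 773 lower, of which 285 and 530 were shared.

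Among the rises, 8 reference genes ranked highest by fold among those whose groups did not overlap, whose replicate 1 of day 3 was at least 2-fold higher and whose libraries did not range 100-fold within a group. The first, gene_1523, held 2, 0 and 0 counts in the controls and 874, 515 and 819 at day 3. It was nearly silent without wood and present in all 3 day 3 libraries, at a ratio of 716 (95% counting interval 198 to 5915, exact binomial, counting error only). Its adjusted p was 0.0090 (edgeR), and 0.053 without replicate 1 of day 3. With gene_1814 the controls were at 0.542, 0 and 0.671 CPM and the day 3 libraries at 53.7, 154.6 and 12.6 CPM. Replicate 2 was the highest and replicate 3 the lowest, a span wider than the change of most genes, but all lay above the controls (log2 fold change 7.36, SE 1.13, edgeR adjusted p = 0.0012). In the first series alone gene_1814 had a log2 fold change of 7.03 and was not called.

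A tighter rise was that of gene_12040, from 0.795, 0.495 and 0.298 CPM to 11.6, 13.7 and 8.08 CPM. All 3 day 3 libraries lay close together and far from the controls (log2 fold change 4.50, SE 0.48, edgeR adjusted p = 0.00011). The rise was as clear in gene_4796, which was already well expressed without wood at 21.7, 24.0 and 19.1 CPM and reached 346.1, 127.7 and 159.0 CPM. Its replicate 1 stood above replicates 2 and 3 (edgeR adjusted p = 2.7e-06, fitted log2 fold change 3.93, SE 0.23). Both gene_12040 and gene_4796 also passed in the first series alone (edgeR adjusted p = 0.041 and 0.014) and in each of the 15 fits that leave out 1 library.

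The level of gene_4796 was 55.9 CPM on average at day 11, and its day 3 level was higher than at the later days by less than 2-fold (log2 fold change 0.76, edgeR adjusted p = 0.028). The others of the 8, apart from gene_11931 described below among the peaks, were gene_10316, gene_7338 and gene_10650. In gene_10316 the controls were at 0.217, 0.991 and 0.969 CPM and day 3 at 8.61, 11.2 and 11.1 CPM. In gene_7338 they were at 6.07, 6.40 and 3.39 CPM and day 3 at 68.6, 26.3 and 21.4 CPM. In both the groups were well apart (log2 fold change 3.72 and 3.43, edgeR adjusted p = 0.00026 and 0.00015), and for gene_10316 the first series alone gave an adjusted p of 0.098. The counts of gene_10650 were 9, 19 and 19 in the controls and 844, 1782 and 1383 at day 3. Its wood libraries fell into 2 levels: replicate 1 of day 5 held 11 counts and replicate 1 of day 7 held 14, while each second-series wood library held 1250 or more. The fitted log2 fold change of 4.10 (edgeR adjusted p = 0.026) was -0.56 (adjusted p = 0.43) without replicate 1 of day 3, and the call was also lost without any single control (4 of 15 fits).

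**Figure D3:**
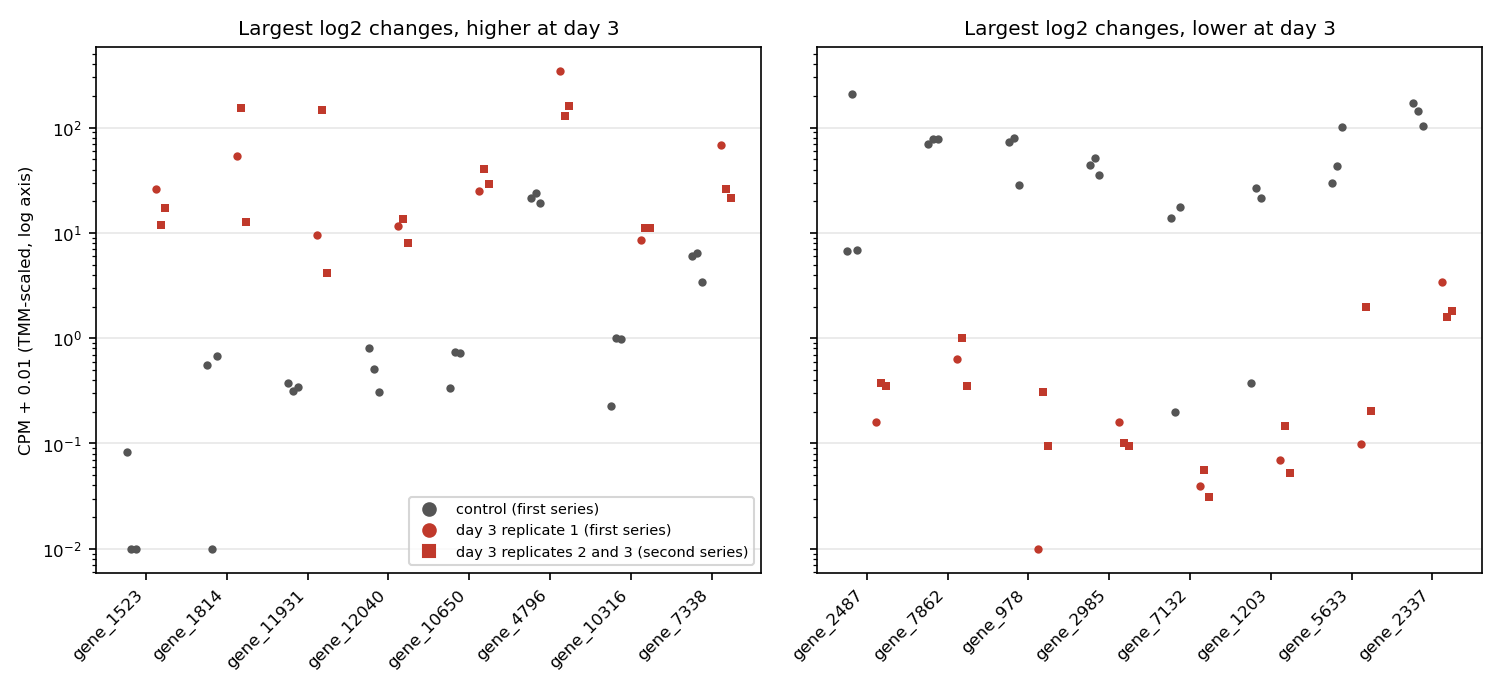
CPM + 0.01 on a log axis in each of the 3 control (grey) and 3 day 3 (red) libraries for the 8 reference genes with the largest rise (left) and the largest fall (right); circles are the first library series and squares the second. The red and grey points of each gene do not overlap, while the spread within a group differs widely between genes.

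Among the falls, the cleanest was gene_2985. It stood at 44.1, 51.9 and 35.6 CPM in the controls, and at 0.148, 0.0913 and 0.0851 CPM at day 3, where the libraries held 5, 4 and 4 counts. The gene was thus near the limit of detection in every day 3 library (edgeR adjusted p = 7.8e-09, ratio of control to day 3 420 with a counting interval of 245 to 789). The pattern was similar in gene_978, with 2035, 2081 and 767 counts in the controls and 0, 13 and 4 at day 3 (edgeR adjusted p = 0.00061, ratio of control to day 3 443 with a counting interval of 276 to 761). The calls of gene_2985 and gene_978 held in each fit that leaves out 1 library and in the first series alone (edgeR adjusted p = 0.021 and 0.045).

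In gene_2337 the controls were at 171.6, 144.3 and 103.5 CPM and day 3 at 3.44, 1.58 and 1.79 CPM. All 3 day 3 libraries were low and close to each other (log2 fold change -6.06, SE 1.00, edgeR adjusted p = 0.0017). For gene_5633 the values were 30.0, 43.5 and 101.7 CPM against 0.0891, 1.96 and 0.191 CPM. Its adjusted p was 0.011 (edgeR), and 0.069 without replicate 1 of day 3. In the first series alone gene_5633 had a log2 fold change of -9.30 and was not called. The fall of gene_7862 was from 69.3, 77.7 and 78.4 CPM to 0.624, 1.01 and 0.340 CPM (edgeR adjusted p = 0.012, log2 fold change -8.75, SE 2.07). At the later days this gene was low in some libraries and high in others. The unnumbered library of day 5 held 123.5 CPM and replicate 2 of day 5 0.462 CPM, and all 3 libraries of day 11 held 74.8 CPM or more. Low values in all 3 libraries of a wood day were seen for gene_7862 at day 3, where its groups did not overlap.

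In the other 3 large falls the controls differed widely among themselves. For gene_2487 the controls were at 6.80, 208.9 and 6.94 CPM and day 3 at 0.148, 0.365 and 0.340 CPM; the fitted log2 fold change of -13.01 (edgeR adjusted p = 0.027) lost its call in 6 of the 15 fits with 1 library left out, among them those without control replicate 2 and without any 1 of the day 3 libraries, with adjusted p-values up to 0.082. In gene_7132 there were 385 and 468 counts in control replicates 1 and 3 but 5 in replicate 2, against 1, 2 and 1 at day 3 (edgeR adjusted p = 0.023, up to 0.14 in the 3 fits that lost the call, those without replicates 1 or 3 of day 3 or replicate 1 of day 7). In gene_1203 control replicate 1 held 10 counts and the others 704 and 581, against 2, 6 and 2 at day 3 (adjusted p = 0.0087 in edgeR, and 0.10 without replicate 1 of day 3). Thus in both genes 1 control library was already near the day 3 level, although both calls held without any single control. In the first series alone gene_2487, gene_7132 and gene_1203 had log2 fold changes of -8.93, -8.29 and -8.01, and none of them was called.

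Ranked by the difference in CPM instead of by fold, the largest falls were in genes that were among the most abundant of the control. The mean FPKM of gene_6466 ranked 6 of the 11386 tested genes in the control and 94 at day 3. Its control libraries held 15520, 15500 and 19850 CPM and its day 3 libraries 2494, 1688 and 2038 CPM (edgeR adjusted p = 0.00039, log2 fold change -2.57, SE 0.34). The abundant gene_2336 fell in the same way, from 15440, 14770 and 16550 CPM to 2982, 2064 and 2181 CPM, and from rank 2 to rank 26 (log2 fold change -2.18, edgeR adjusted p = 0.00031). The steepest of these 5 was gene_3058, from 7811, 9255 and 10890 CPM to 519.7, 361.8 and 308.5 CPM, with the rank going from 9 to 665 (log2 fold change -3.85, SE 0.49, edgeR adjusted p = 0.00033).

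The other 2 were gene_2195 and gene_9487. The level of gene_2195 was 9607, 9102 and 9508 CPM in the controls and 1168, 966.1 and 897.6 CPM at day 3 (log2 fold change -2.67, edgeR adjusted p = 8.5e-05). That of gene_9487 was 9765, 8032 and 8799 CPM and then 2258, 1821 and 2351 CPM (log2 fold change -1.79, edgeR adjusted p = 0.0033). In all 5 of these genes the spread within each group was small beside the difference. The 5 calls also held in the first series alone (edgeR adjusted p = 0.021 to 0.030). They held without any 1 library, and for gene_9487 they were lost with limma on FPKM, where its means were 2132 ± 583 and 791.1 ± 140 FPKM (SD, n = 3).

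Of the abundant rises, gene_1736 was the largest in CPM. It held 3135, 3142 and 2727 CPM in the controls and 10190, 6849 and 7370 CPM at day 3, and its mean FPKM went from rank 39 to rank 2 (log2 fold change 1.46, SE 0.22, edgeR adjusted p = 0.00077). The level of gene_6002 went from 742.9, 784.1 and 1105 CPM to 2111, 2477 and 2075 CPM, and from rank 54 to rank 3 (log2 fold change 1.17, edgeR adjusted p = 0.0017). A larger fold was seen in gene_7945, from 95.8, 219.3 and 253.3 CPM to 869.5, 1122 and 1089 CPM (edgeR adjusted p = 0.00044, log2 fold change 2.42, SE 0.33). The groups of these 3 genes lay well apart.

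In gene_10061 and gene_8048 the controls themselves spread more. The controls of gene_10061 were at 633.1, 793.7 and 1511 CPM and day 3 at 3018, 3531 and 3241 CPM (log2 fold change 1.49, edgeR adjusted p = 0.0064). Those of gene_8048 were at 350.2, 694.6 and 999.0 CPM and day 3 at 1605, 1695 and 1587 CPM (log2 fold change 1.32, edgeR adjusted p = 0.018). Both calls were lost without replicate 1 of day 3 (adjusted p = 0.086 and 0.085). In the first series alone, gene_1736 passed (adjusted p = 0.025), while the other 4 abundant risers gave adjusted p-values of 0.087 to 0.32.

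The genes next described were named because replicate 1 of day 3 was less than 2-fold from the control mean or because libraries ranged 100-fold or more within a group. For gene_6935 (edgeR adjusted p = 0.014), each control held 1 count, replicate 1 of day 3 held 3728 and replicates 2 and 3 held 1 each. Without replicate 1 the adjusted p was 0.98. The reverse division was seen in gene_8577, at 0.976, 0.876 and 1.79 CPM in the controls and 1.22, 19.9 and 23.3 CPM at day 3, so that only the second-series libraries were high. Its adjusted p was 0.046 (edgeR), and 14 of the 15 fits with 1 library left out lost the call (adjusted p up to 0.17). In the first series alone its log2 fold change was 0.00 (adjusted p = 1.0). The rise of gene_11933 was of ordinary size and was seen in every day 3 library. It was 1.94-fold in replicate 1, just short of the 2-fold criterion, with 7.41, 7.81 and 9.58 CPM in the controls and 16.03, 32.3 and 27.3 CPM at day 3 (edgeR adjusted p = 0.0028). In the first series alone gene_11933 had a log2 fold change of 0.95 and was not called.

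Among the lower genes named for the same reason, gene_9618 held 1182, 101 and 1276 counts in the controls and 0, 488 and 1338 at day 3. Only replicate 1 was without it, and the fitted log2 fold change of -8.41 (edgeR adjusted p = 0.016) was far from the threshold when the series term was dropped (adjusted p = 0.70); the call was lost without replicate 1 of day 3 or replicate 3 of day 7 (adjusted p up to 0.087). In the other 2 the day 3 libraries were alike and the controls were not. In gene_11128 control replicate 1 held 4933 counts and the other controls 22 and 3, against 30, 28 and 41 at day 3, and the call (edgeR adjusted p = 0.048) was lost in 12 of 15 such fits. In gene_5770 control replicate 3 held 13 counts beside 3251 and 3241 in the others, against 14, 11 and 13 at day 3 (edgeR adjusted p = 0.033, lost in 8 of 15 such fits, with adjusted p up to 0.15). In all, 107 tested genes (0.940%) ranged 100-fold or more within the control or the day 3 group on the scale of CPM + 0.1, and 1 higher and 5 lower called genes were among them.

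Few tested genes went from near silence to expression. A gene near silent in the control passes the expression filter only through wood libraries, so the numbers here depend on the wood groups. Of 90 tested genes with at most 3 counts over the 3 controls, 16 were called higher, 10 of them with no control count. Over all genes tested, 3.35% were called higher. Their day 3 totals ran from 11 to 3730 counts with a median of 81.5. In 6 of the 16 each day 3 library held 10 or more counts, and in 1, gene_1523, each held 100 or more. In 4 of the 16 only 1 day 3 library held 10 or more counts, as in Trametes_gibbosa_newGene_766 with 68, 0 and 0. In the opposite direction, 43 tested genes had at most 3 counts over the day 3 libraries. Of these, 5 were called lower, from control totals of 43 to 132, while 5.81% of all genes tested were called lower. Among the 5, gene_10384 held 0, 0 and 43 counts in the controls and Trametes_gibbosa_newGene_344 held 101, 0 and 0. For both, the other controls were thus already silent. The rest of the 5 held counts in every control. The fitted folds of such genes rest on very few counts in 1 group and are not read as sizes.

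Newly assembled loci, transcribed regions that the authors added to the reference annotation, changed in smaller numbers. Of 616 tested, 14 were higher (2.27%) and 13 lower (2.11%), beside 3.41% and 6.02% of the 10770 reference genes tested, and the medians of the fitted log2 fold changes were 0.04 and 0.01. The difference between the 2 kinds was not tested. Without replicate 1 of day 3 the loci called were 4 and 6. The number of higher loci was 9 without replicate 1 of day 5, 8 without the unnumbered day 5 library and 9 without replicate 3 of day 7. One locus was named among the rises, Trametes_gibbosa_newGene_644, on the minus strand of scaffold 1 from 1019121 to 1023766 with 6 transcripts (genome build not given in the sources used here). It held 12.8, 12.04 and 11.0 CPM in the controls and 37.7, 15.9 and 17.7 CPM at day 3, and the high value was that of replicate 1 (log2 fold change 1.37, SE 0.29, edgeR adjusted p = 0.0063; 0.13 without replicate 1 of day 3 and 0.059 without the series term).

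Of the 3 named loci that fell, Trametes_gibbosa_newGene_1119 on scaffold 5 (282897 to 286035, plus strand, 4 transcripts) was the most abundant, at 76.0, 70.7 and 103.2 CPM in the controls and 31.4, 38.7 and 36.9 CPM at day 3 (log2 fold change -1.32, SE 0.18, edgeR adjusted p = 0.00039). Its groups lay well apart, and no fit without 1 library lost the call. On scaffold 22 (299655 to 301015, minus strand, 2 transcripts), Trametes_gibbosa_newGene_645 went from 12.9, 10.5 and 11.7 CPM to 4.42, 3.49 and 3.68 CPM (log2 fold change -1.76, edgeR adjusted p = 0.0086). The last, Trametes_gibbosa_newGene_708 on scaffold 26 (61181 to 65550, minus strand, 6 transcripts), overlaps 2 other new loci, so its counts may be shared with them. It held 5.68, 6.74 and 17.7 CPM and then 2.79, 3.74 and 2.45 CPM (edgeR adjusted p = 0.034), and 6 of the 15 fits without 1 library lost the call, with adjusted p up to 0.20; these left out control replicate 3, replicates 1 or 3 of day 3, replicate 1 of day 5, the unnumbered day 5 library or replicate 3 of day 7. With library totals as scaling, and with limma on FPKM, the calls of the last locus and of Trametes_gibbosa_newGene_1119 were lost. In the first series alone none of these 3 loci was called. Their log2 fold changes there were -1.41 for Trametes_gibbosa_newGene_1119, -1.40 for Trametes_gibbosa_newGene_645 and -1.85 for Trametes_gibbosa_newGene_708.

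Which changes were largest at day 3 was asked in 2 ways. By fitted fold alone, 165 of the 381 higher genes (43.3%) changed more at day 3 than at days 5, 7 and 11, and 34, 81 and 101 changed most at those days. Of the 661 lower genes, 194 (29.3%) fell furthest at day 3, and 54, 271 and 142 at days 5, 7 and 11; the 194 became 118 without replicate 1 of day 3. These genes were chosen at day 3, which favours that day, and all days share the 3 controls. Over the 381 genes the median log2 fold change was 1.33 at day 3, 1.27 at day 5, 1.33 at day 7 and 1.32 at day 11. Over the 661 genes it was -1.59, -1.51, -1.69 and -1.55. For these genes, called at day 3, the median change was of similar size on each wood day. Genes called only at a later day do not enter, so the typical change of those days is not described.

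The second way was a test of day 3 against the mean of days 5, 7 and 11, which uses no control library in the contrast. It called 48 genes higher at day 3 (0.422% of genes tested) and 15 lower (0.132%), beside 2162 genes at an unadjusted p under 0.05 (edgeR) and 171 called by DESeq2. Against single later days, 2 genes were called for day 5, 28 for day 7 and 162 for day 11 (0.0176%, 0.246% and 1.42% of genes tested). Day 11 lies wholly in the second series. Within that series alone, 32 genes were higher and 8 lower than at the later days, of which 24 and 1 were shared with the full fit. Without replicate 2 of day 3 the numbers were 21 and 1. The lower list moved by over 1.5 times with many libraries: it held 24 genes without control replicate 3, 8 without replicate 1 of day 3 or of day 11, 7 without replicate 1 of day 7, and 5 without replicate 1 of day 5, the unnumbered day 5 library or replicate 2 of day 7. It held 0 without the series term, where 623 genes were lower at an unadjusted p under 0.05 (edgeR).

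Of the 48 genes above the later days, 16 were also higher than the control and so formed a peak at day 3. The contrasts share the day 3 libraries, so a stray day 3 library enters both. The number was 17, 10 and 18 without replicates 1, 2 and 3 of day 3, of which 10, 7 and 15 were among the 16. In the first series alone, with 1 library for each wood day, 2 genes passed both tests upward and 4 downward, and 0 of them were among those called with all libraries. The median level of the 16 was 24.7 CPM in the control, 109.3 CPM at day 3 and then 53.2, 46.7 and 30.8 CPM at days 5, 7 and 11. In 13 of the 16 all 3 day 3 libraries lay above all 9 later wood libraries, beside 183 of the 11386 genes tested. In 10 of the 16 the means declined from each day to the next. The 16 were chosen on these same libraries, so nothing is read from either count.

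The clearest peak was gene_11960. It stood at 21.7, 21.8 and 18.7 CPM in the controls, 85.8, 133.1 and 115.1 CPM at day 3, 34.6 to 57.1 CPM at day 5, 23.8 to 37.8 CPM at day 7 and 16.3 to 23.3 CPM at day 11. All 3 day 3 libraries lay above every control and every later library, and day 11 lay around the control values, with replicate 1 below all controls and replicate 3 above them. With the series term, the fitted log2 fold change of day 11 against the control was -0.59 (edgeR adjusted p = 0.049), under the 2-fold limit (log2 fold change 2.05, SE 0.17, edgeR adjusted p = 2.2e-05 against the control; 1.93, adjusted p = 2.1e-05 against the later days). Both calls held in each fit that leaves out 1 library. In the first series alone the call against the control held (edgeR adjusted p = 0.025), and that against the later days did not (adjusted p = 0.16). A slower decline was seen in gene_144, at 39.7, 50.6 and 75.2 CPM in the controls, 337.8, 194.6 and 180.4 CPM at day 3 and means of 126.1, 88.7 and 32.5 CPM at days 5, 7 and 11 (log2 fold change 2.54 against the control and 1.62 against the later days, edgeR adjusted p = 4.4e-05 and 0.00071).

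In gene_4547 the level went from 96.8, 146.0 and 160.1 CPM to 503.9, 554.4 and 426.7 CPM at day 3, above every later library. At days 5 and 7 replicate 1 stayed high (408.4 and 304.2 CPM) while the other libraries held 108.0 to 198.2 CPM (edgeR adjusted p = 0.011 against the later days, 0.082 without replicate 2 of day 3). In gene_7835 the controls were at 23.7, 36.0 and 26.5 CPM and day 3 at 78.5, 94.9 and 75.8 CPM, while replicate 2 of day 5 was as high at 77.6 CPM (adjusted p against the later days 0.012 in edgeR, up to 0.078 without replicate 1 or 2 of day 3; against the control 0.015, and 0.25 without replicate 1 of day 3). The peak with the widest fold was gene_11931, absent but for 7 to 25 counts in every control and later library, and at 324, 6473 and 194 counts at day 3. All 3 day 3 libraries were far above the rest, with replicate 2 well above the other 2 (log2 fold change 6.54, SE 1.42, edgeR adjusted p = 0.0076 against the control; 7.61, adjusted p = 0.0016 against the later days). In the first series alone, where replicate 1 of days 3, 5 and 7 stood for each day, gene_11931 gave an adjusted p of 0.11 against the later days, and gene_144, gene_4547 and gene_7835 gave 0.56, 0.72 and 0.36 (edgeR). Against the control the first series gave 0.025 for gene_11931, and 0.053, 0.059 and 0.073 for the other 3 (edgeR adjusted p). Beside these, gene_8577 passed both tests with all libraries, but its replicate 1 of day 3 was at the control level, as given above (adjusted p = 0.96 against the later days in the first series).

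**Figure D4:**
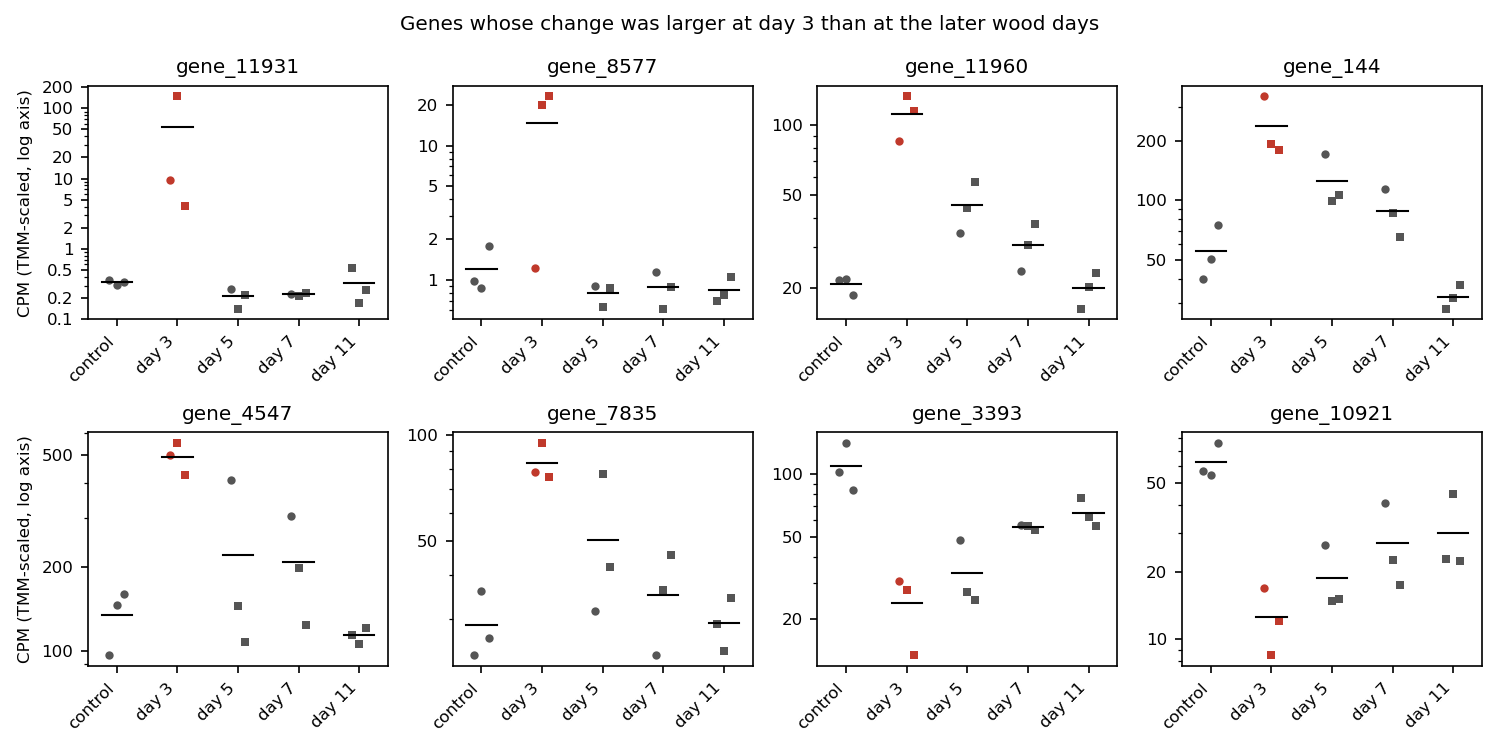
CPM on log axes in the 3 libraries of each group for the 6 highest-ranked genes that peaked at day 3 and the 2 that were lowest at day 3; red marks day 3, circles the first and squares the second library series, and bars the group means. For gene_11960 the means run from 20.7 CPM in the control to 111.3 CPM at day 3 and 19.9 CPM at day 11.

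The other 10 genes of the peak list rose by log2 fold changes of 1.11 or more against the control and of 1.06 or more against the later days. Examples chosen after their values were seen are gene_3843, with means of 124.1 CPM in the control, 506.3 CPM at day 3 and 287.1, 247.5 and 151.6 CPM at days 5, 7 and 11, and gene_5750, with 9.98, 37.3, 24.0, 16.2 and 12.2 CPM in the same order. Both passed against the control (edgeR adjusted p = 5.8e-05 and 4.2e-06) and against the later days (edgeR adjusted p = 0.0011 and 0.00013).

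Lowest at day 3, with both tests passed, were 2 genes. In gene_3393 the controls held 102.7, 141.6 and 83.9 CPM and day 3 held 30.6, 27.7 and 13.4 CPM, with means of 33.3, 55.7 and 65.3 CPM at days 5, 7 and 11. In gene_10921 the controls held 57.0, 54.5 and 75.8 CPM and day 3 held 17.0, 8.49 and 12.1 CPM, with later means of 18.8, 27.1 and 30.1 CPM. Both fell below all controls at day 3 (log2 fold change -1.87 and -1.79, edgeR adjusted p = 0.0021 each) and then partly returned. In the first series alone their log2 fold changes against the control were -1.84 and -1.88, and neither was called. Against days 5 and 7, the later days of that series, they were -0.79 and -0.97, and again neither was called. Their difference from the later days was small and fragile: log2 fold changes of -1.12 and -1.08 with edgeR adjusted p of 0.036 and 0.034, lost in 10 and 8 of the 15 fits without 1 library, where it reached 0.12 and 0.18. The list of 2 became 24 genes with DESeq2. It held 0 genes without replicate 2 of day 3 or of day 7, 1 without replicate 1 of day 5, replicates 1 or 3 of day 7 or replicates 1 or 2 of day 11, 4 without replicate 1 of day 3, 5 without replicate 3 of day 3 or of the control, and 6 without replicate 3 of day 11.

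Of the 48 genes above the later days, 28 were not called against the control, which does not show that they were level with it: 18 of the 28 had a fitted fold above the control. Their median level was 30.6 CPM in the control, 44.2 CPM at day 3 and 24.7, 14.7 and 16.8 CPM at days 5, 7 and 11. The remaining 4 were already called lower at day 3 and lower still afterwards. Chosen after its values were seen, gene_713 is an example of these, with means of 675.2 CPM in the control, 391.3 CPM at day 3 and 166.7, 121.4 and 97.6 CPM at days 5, 7 and 11 (log2 fold change -1.67, edgeR adjusted p = 0.017 against the control; 1.80, adjusted p = 0.011 against the later days). For the 15 genes below the later days the counts were 2 lower than the control, 12 not called and 1 higher.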

How the data were processed

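Poly-A RNA libraries of 15 mycelium samples were used. The authors deposited whole-number estimated counts per gene, used as deposited, and FPKM values, scaled by transcript length and mapped fragments, used for levels between genes and for alternatives. A deposited annotation gave positions of the 847 newly assembled loci among 12885 genes, and the count table a gene length. HISAT2, StringTie, DESeq 1.10.1 and DESeq2 are named in the submitters' processing notes, without roles; for the genome build, the sources used here give no name. Columns were matched by title, and 1 day 5 column without a matching number was used as an unnumbered library of the second series.

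Genes were filtered with filterByExpr and scaled with TMM. The robust quasi-likelihood model of edgeR 4.0.16 (R 4.3.3) had a term for the group and one for the library series and used all 15 libraries together (9 residual degrees of freedom, biological coefficient of variation 38.8%). The printed SE is the log2 fold change divided by the square root of F. Log2 fold changes include the series term and need not equal ratios of printed means. Alternatives used DESeq2 1.42.0, limma 3.58.1, other scalings, filters and terms, and each library left out. The procedure was also run on counts simulated without a series difference, so that run does not bear on the division into series. Intervals cover counting error only.

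Genes were named by rule: the 8 reference genes with the largest fold and the 5 with the largest CPM difference in each direction (called, 10 CPM or more in a group, no overlap, 2-fold in day 3 replicate 1, no 100-fold range within a group), up to 3 new loci by the same rule, up to 6 peak genes, and the 3 largest folds failing either of the last 2 conditions in the brackets. The members and lists were chosen with earlier results of these data known. Numbers were not treated as pairs, and the labels do not tie them to a shared culture. Deviations of control and day 3 libraries of equal number had correlations of -0.016 to -0.004 across genes. The day 3 deviations also hold the difference between the 2 series, which the controls lack, so these values cannot exclude pairing.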

Additional observations from a re-analysis of the deposited data

Results flagged for a closer look

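Levels that differed between day 3 and the later wood days, by the edgeR test of the difference itself, were found in 48 genes that were higher and 15 that were lower at day 3 than at the mean of days 5, 7 and 11. Against single days the numbers of genes called were 2 for day 5, 28 for day 7 and 162 for day 11. Among the named genes, the log2 fold change of day 3 against the later days was 7.61 for gene_11931, 4.00 for gene_8577, 1.93 for gene_11960, 1.62 for gene_144, 1.55 for gene_4547 and 1.27 for gene_7835. It was -1.12 for gene_3393 and -1.08 for gene_10921. For gene_8577 the difference came from replicates 2 and 3 of day 3, the second-series libraries.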

How the results depend on the processing

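Counts are given as higher and lower, in edgeR unless another tool is named. For day 3 against control, library totals gave 1077 and 382, limma on log2(FPKM + 1) 805 and 344, limma on log2(FPKM + 0.1) 1139 and 389, the first series alone 116 and 259, no fold limit 1247 and 1358, and a 4-fold limit 77 and 191. Leaving out 1 library gave 269 to 416 and 449 to 653. For day 3 against the later days, DESeq2 gave 98 and 73, no series term 28 and 0, the first series (days 5 and 7 only) 4 and 4, the replicate block 28 and 3, no fold limit 221 and 72, and a 4-fold limit 11 and 3. The lower count was 35 with library totals, 40 with limma on log2(FPKM + 0.1) and 8 in the second series, and the higher count was 30 with limma on log2(FPKM + 1). Leaving out 1 library gave 21 to 53 and 1 to 24.

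The counts against days 5, 7 and 11 were 61, 161 and 336 with DESeq2 and 0, 6 and 44 without the series term, where 599 genes had an unadjusted p under 0.05 for day 5. They were 8, 13 and 92 in the second series, and 8 and 11 for days 5 and 7 in the first. Day 5 gave 1 with library totals or with limma on log2(FPKM + 1), and day 7 gave 46 with limma on log2(FPKM + 0.1). With the replicate block days 7 and 11 gave 15 and 61. Leaving out 1 library gave 0 to 6, 4 to 31 and 48 to 192. Peaks at day 3 numbered 2 higher and 4 lower in the first series, and 0 of these, like 0 of its 4 and 4 against the later days, were among those of all libraries. The lower peaks were 24 with DESeq2, 5 with library totals, 1 with limma on log2(FPKM + 1) and 0 without the series term. Leaving out 1 library gave 10 to 18 and 0 to 6.

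Genes changing most at day 3 were 300 higher with library totals, 265 higher and 110 lower with limma on log2(FPKM + 1), 321 higher with limma on log2(FPKM + 0.1), 292 lower without the series term and 117 lower with the replicate block (leaving out 1 library, 148 to 191 and 118 to 239). New loci called were 34 and 7 with library totals, 1 and 5 with a filter of 10 CPM in 3 libraries, 9 and 1 with limma on log2(FPKM + 1), 39 and 5 with limma on log2(FPKM + 0.1), 1 and 5 in the first series, 2 and 2 with the replicate block, and 21 lower with DESeq2 (leaving out 1 library, 4 to 17 and 6 to 16). The test of replicate 1 of day 3 alone gave 183 and 409 with that filter and 699 higher with library totals (leaving out 1 library, 0 to 137 and 0 to 278). The share of the most abundant genes differed by -7.80 percentage points for 100 genes, against -2.71 for 10 (-2.88 to -2.53 without 1 library).

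Direction turned in 3 cases. With 1 library left out, the log2 fold change against control ran from -0.56 to 4.50 for gene_10650 and from -0.38 to 11.01 for gene_6935, negative in both when replicate 1 of day 3 was dropped. In the first series alone the value was -0.0007 for gene_8577. The replicate block, with 288 and 476 genes against control, rests on numbers that the labels do not tie to a shared culture. It ended the calls against control of 14 named genes. Causes of the changes between settings were not tested. The first series has fewer libraries, and the fold limits and filters admit other genes.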
